A study of Homo sapiens with 4 samples.

Results

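The nuclear genes of oxidative phosphorylation were followed in A549 cells, an established human lung adenocarcinoma line, after knockdown of the long noncoding RNA EPEL. Members were the protein-coding probes of the Illumina HumanHT-12 BeadChip whose symbol names a subunit of complexes I to V or a cytochrome c gene and whose detection p-value (how many of the array's negative control beads match or exceed the signal, as a share) was under 0.01 on at least 1 array. This gave 110 probes of 83 genes, out of 18200 probes tested and 47228 on the array. The rule itself uses no measured value other than detection, though it was set with earlier results of these data known. By role, the 83 genes comprised 33 subunits of complex I, 3 of complex II, 9 of complex III, 10 of complex IV and 17 of ATP synthase (complex V), the cytochrome c gene CYCS, and 10 assembly factors or relatives that share a subunit's symbol.

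Electrons from NADH and succinate enter the inner mitochondrial membrane through complexes I and II, pass through complex III and cytochrome c, and are handed to oxygen by complex IV. Complexes I, III and IV pump protons, and ATP synthase uses the returning protons to make ATP. Complex I joins core subunits, which carry the flavin and iron-sulfur centres, to a larger number of accessory subunits that surround them, and most proteins of the system are encoded in the nucleus.

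The study comprised 4 arrays, each of total RNA from A549 cells that had been transfected with siRNA at 50 nM using a cationic lipid and examined for knockdown at 48 h. For all samples the medium was changed at 4 h. The control group, treated with a non-targeting control siRNA, has 1 array. The siEPEL group has 3, from cells that each received another siRNA against EPEL, named here siRNA 1, siRNA 2 and siRNA 3. All cells came from 1 line, all went through the same transfection, and nothing in the labels marks the samples as separate cultures. Of 8 markers of the line, 7 were detected on all 4 arrays, AKR1C1 being the exception. Of 9 markers of other cell types with a probe, 6 were detected on no array. These were PTPRC and CD3E of leukocytes, PECAM1 and CDH5 of endothelium, DCN of fibroblasts and SFTPC of alveolar type II cells. The leukocyte marker CD14 and the fibroblast marker COL3A1 were detected on all 4 arrays, and COL1A1, also of fibroblasts, on 2. The median raw signal lay between 65.9 and 68.3, and between 16520 and 17106 probes were detected per array. A level below is a background-corrected, quantile-normalized log2 intensity, and a ratio is the difference of a siEPEL array's level from that of the single control array. All 3 ratios of a gene therefore share the control array.

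No gene of oxidative phosphorylation differed between siEPEL and control cells at the threshold of the test. With limma, 0 of the 110 member probes had an adjusted p under 0.05 (background over all probes tested, 0.0%), and 2 had an unadjusted p under 0.05, which is 1.82% of them against 2.1% of all probes. Among these 2 was the probe of NDUFC2, which was detected on siEPEL arrays alone. Its place among the members therefore tilts towards a higher siEPEL side. The median gene lay 6.49% above the control with siRNA 1, 5.89% above it with siRNA 2 and 3.33% below it with siRNA 3. The mean of these 3 medians was 0.04 ± 0.08 on the log2 scale (SD, 3 siRNAs), against 0.00 ± 0.00 for all 10921 genes tested. Quantile normalization gives all arrays the same distribution of levels, so the value near 0 for all genes was largely set by it. With median scaling in place of quantile normalization the median log2 fold change of the members turned from 0.05 to -0.01. That of all genes tested moved from -0.0055 to -0.023. All 3 siRNAs were above the control in 22 of the 83 genes, or 26.5% (background 20.5%), and all 3 below in 11 genes, or 13.3% (background 20.3%). The 22 genes include NDUFC2. The number of arrays limits the precision, and a member's log2 fold change had a standard error of 0.21 at the median. The p-values reflect no more than the spread between these samples. Each standard error rests mostly on the variance shared over all probes tested (6.83 prior degrees of freedom). The gene's own arrays weigh less in it (2 residual degrees of freedom). The fit also lends the single control array the variance of the siEPEL arrays.

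**Figure D1:**
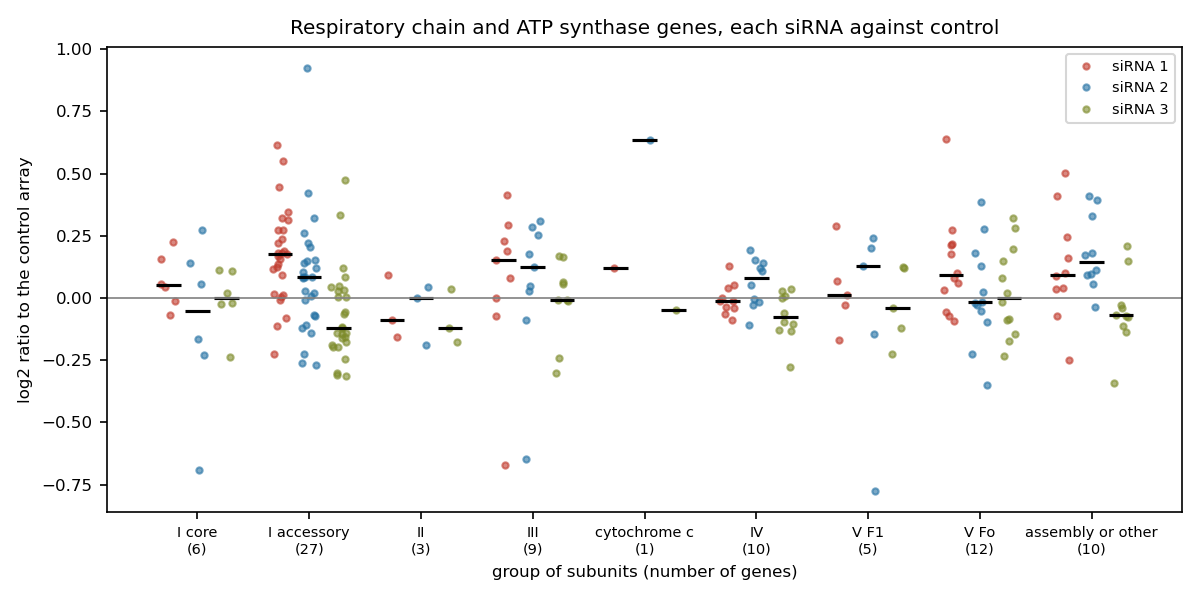
Log2 ratio of each member gene to the control array (y axis) by group of subunits (x axis, number of genes in brackets) for siRNA 1, siRNA 2 and siRNA 3. Each point is 1 gene and each black bar is the median. The accessory subunits of complex I lie mostly above 0 with siRNA 1 and mostly below 0 with siRNA 3, while the 10 complex IV genes stay within a narrow band.

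The promoters of these genes were examined for the motifs of factors known to control respiratory genes: nuclear respiratory factor 1 (NRF1), GA-binding protein (GABPA) and YY1. The more general motifs of SP1 and E2F were searched with them. Promoter windows, 250 bases before to 50 after the gene start, were found in the RefSeq table for 69 of the 83 genes. The NRF1 motif GCGCANGCG, searched on both strands, was present in 21 of the 69 windows, or 30.4%, against 15.5% of the windows of all genes tested and 8.05% of all windows. The GABPA motif CCGGAAGT was present in 10 windows, or 14.5%, against 9.06% and 4.44%. The YY1 motif AAGATGGCG was present in 7 windows, or 10.1%, against 4.06% and 1.85%. Of these 7, only the match in ATP5PF lay wholly within the 250 bases before the gene start. The others lay in, or reached into, the 50 bases after it. At least 1 of the 3 motifs stood in 32 windows, or 46.4%, against 25.9% of the windows of genes tested. The SP1 motif GGGGCGGGG was less frequent in the members, at 8 windows or 11.6% against 27.9% of the windows of genes tested, and the E2F motif TTTGGCGC was present in 1 window, or 1.45%, against 1.09%. By complex, the NRF1 motif was found in 8 of 29 windows of complex I, 3 of 6 of complex III, 1 of 9 of complex IV and 6 of 13 of ATP synthase. Matches of different motifs overlapped in 0 member windows. A match is a description of these letters and not a bound site.

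The promoters of 4 genes that lay on 1 side of the control with all 3 siRNAs are shown, with that of SDHA, which holds the most NRF1 matches among the windows that could be shown. They are the 250 bases before the gene start, 5′ to 3′ on the strand of the gene, from RefSeq on GRCh38.p14, with NRF1 and GABPA matches in capitals.
NDUFA13 (chr19:19515975-19516224, + strand): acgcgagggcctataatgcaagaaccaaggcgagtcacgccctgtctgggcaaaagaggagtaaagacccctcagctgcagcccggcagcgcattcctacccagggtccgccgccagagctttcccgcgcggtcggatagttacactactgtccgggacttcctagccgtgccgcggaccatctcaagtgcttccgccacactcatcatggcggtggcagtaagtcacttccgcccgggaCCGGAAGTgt
UQCR11 (chr19:1605463-1605712, - strand): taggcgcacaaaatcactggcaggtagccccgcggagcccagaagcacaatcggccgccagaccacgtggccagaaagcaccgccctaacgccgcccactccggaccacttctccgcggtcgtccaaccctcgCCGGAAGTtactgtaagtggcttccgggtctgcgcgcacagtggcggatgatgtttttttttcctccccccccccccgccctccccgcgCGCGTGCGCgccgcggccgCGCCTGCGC
ATP5PD (chr17:75046970-75047219, - strand): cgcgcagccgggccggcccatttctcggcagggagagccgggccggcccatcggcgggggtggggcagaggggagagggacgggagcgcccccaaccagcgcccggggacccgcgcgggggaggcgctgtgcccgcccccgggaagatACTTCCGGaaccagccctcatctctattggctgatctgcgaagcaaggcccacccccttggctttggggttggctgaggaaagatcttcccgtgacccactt
ATP5ME (chr4:674277-674526, - strand): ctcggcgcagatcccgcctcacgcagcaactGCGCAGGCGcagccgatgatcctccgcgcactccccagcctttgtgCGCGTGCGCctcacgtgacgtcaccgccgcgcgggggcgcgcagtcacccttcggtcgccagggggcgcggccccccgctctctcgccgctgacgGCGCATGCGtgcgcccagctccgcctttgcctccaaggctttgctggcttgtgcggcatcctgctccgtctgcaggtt
SDHA (chr5:218070-218319, + strand): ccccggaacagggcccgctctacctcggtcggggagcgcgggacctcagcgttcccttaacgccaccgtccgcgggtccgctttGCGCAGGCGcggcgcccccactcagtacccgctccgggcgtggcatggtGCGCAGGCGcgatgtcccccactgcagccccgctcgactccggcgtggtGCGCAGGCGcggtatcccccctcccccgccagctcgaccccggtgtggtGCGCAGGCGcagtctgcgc

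In SDHA the 4 NRF1 matches follow one another at a spacing of 49 bases. The ratios of genes with and without a motif were set side by side, with no test. The 21 genes with an NRF1 match had medians of 0.13, -0.0087 and -0.06 with siRNAs 1, 2 and 3, and the 48 without one had 0.07, 0.10 and -0.02. For the GABPA motif the medians were 0.06, 0.03 and -0.01 in 10 genes with a match and 0.10, 0.08 and -0.06 in 59 without. For YY1 they were 0.16, 0.08 and -0.14 in 7 genes with a match and 0.08, 0.07 and -0.04 in 62 without. For SP1 they were 0.25, 0.02 and -0.04 in 8 genes with a match and 0.08, 0.08 and -0.05 in 61 without. The single gene with an E2F match had -0.09, 0.05 and -0.13, and the 68 without one had medians of 0.09, 0.08 and -0.04. NRF1 matches and GABPA matches are each seen on both sides of the control. UQCR11, below it, holds 2 NRF1 matches and 1 GABPA match. Above it, NDUFAB1 and UQCRC1 hold NRF1 matches, and NDUFA13 and ATP5PD hold 1 GABPA match each.

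Complex I, which takes electrons from NADH, had the widest spread of medians between the siEPEL arrays among the 5 complexes, an SD of 0.11 on the log2 scale. Its 33 measured genes had a median 11.6% above the control with siRNA 1 and 5.69% above it with siRNA 2, and 4.45% below it with siRNA 3. The siRNA 1 median is the value of NDUFB4, whose probe was detected on 1 siEPEL array and not in control cells. The counts that follow include NDUFB4 and NDUFC2, which were both detected on siEPEL arrays alone. With siRNA 1, 27 of the 33 genes were above the control and 6 below (background 50.2% above), with siRNA 2, 21 and 12 (50.2%), and with siRNA 3, 13 and 20 (49.5%). At least 25% above the control were 4 genes with siRNA 1 (background 10.8%), 3 with siRNA 2 (11.6%) and 2 with siRNA 3 (7.0%). At least 20% below it were 0, 1 and 0 (13.6%, 12.2% and 7.69%).

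The accessory and core subunits of complex I had different medians. The 27 accessory subunits lay 13.1% and 5.89% above the control with siRNAs 1 and 2 and 7.96% below it with siRNA 3, while the 6 core subunits lay at 3.56%, -3.63% and 0.04%. Accessory subunits separated the siRNA 1 array from the siRNA 3 array in nearly every gene, a difference that does not use the control. Of the 27, 26 had the higher level with siRNA 1 (background 50.0%), NDUFB2 being the exception, with a median difference of 0.24 on the log2 scale (interquartile range 0.14 to 0.34), and 8 were at least 25% higher (background 12.2%). Of the 6 core subunits, 3 were higher with siRNA 1, at a median difference of 0.02. The widest differences among the accessory subunits were those of NDUFA2 (0.50), NDUFA7 (0.46) and NDUFA10 (0.36), and the core subunit NDUFS7 was at 0.39. Of all pairs of siEPEL arrays, siRNA 1 and siRNA 3 had the largest median difference in the accessory subunits. The siRNA 2 level was above the siRNA 3 level in 22 of the 27 (background 50.9%), at a median of 0.15. The siRNA 1 level was above the siRNA 2 level in 19 of the 27 (background 49.0%), at a median of 0.04. Each siRNA has 1 array, so there is no test of these differences, and the arrays rather than the siRNAs were compared. Under the 9 other settings that keep the siRNA 1 and siRNA 3 arrays, between 92.6% and 96.3% of the measured accessory subunits were higher with siRNA 1. The medians ran from 0.22 to 0.34. Leaving out siRNA 2 was 1 of these settings and could not change the values. The 0.34 came under median scaling, where the median of all genes was 0.03. With probes detected on all 4 arrays alone, which leaves out NDUFB4 and NDUFC2, 24 of 25 were higher, at a median of 0.24.

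The difference between the siRNA 1 and siRNA 3 arrays was also taken in other mitochondrial gene lists, with no test between lists. Of 76 mitochondrial ribosomal protein genes, 81.6% were higher with siRNA 1 than with siRNA 3, at a median difference of 0.15. Of the 42 measured assembly factors that lie outside the symbol rule, 78.6% were higher, at a median of 0.16. Of 15 TCA cycle genes, 40.0% were higher, at a median of -0.03, and of 72 cytosolic ribosomal protein genes, a list added after the values were seen, 61.1% were higher, at 0.03. Among the other subunits, siRNA 1 was the higher of these arrays in 6 of 9 complex III genes, 7 of 10 complex IV genes and 11 of 17 ATP synthase genes. A difference in RNA quality or hybridization between the arrays was not tested.

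**Figure D2:**
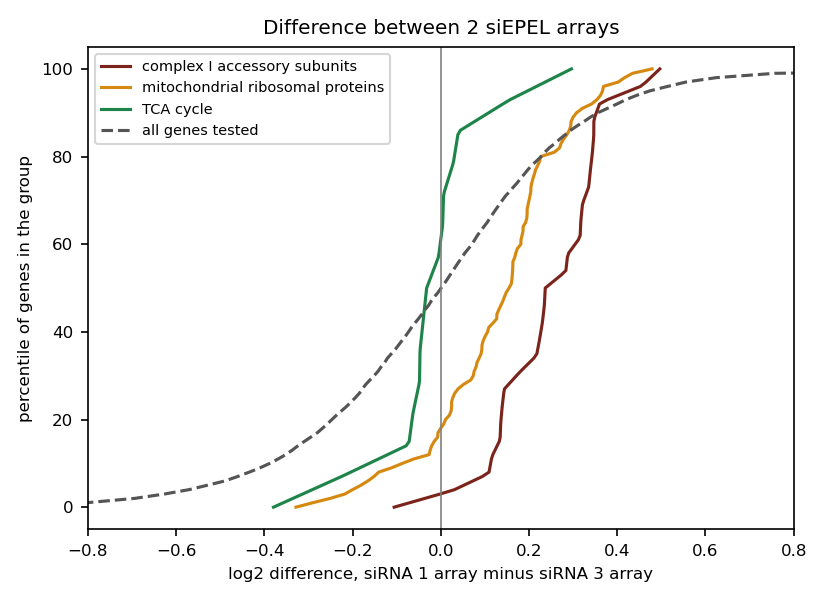
Percentile of genes (y axis) against the log2 difference between the siRNA 1 and siRNA 3 arrays (x axis) for the 27 accessory subunits of complex I, 76 mitochondrial ribosomal proteins, 15 TCA cycle genes and all 10921 genes tested. The curve of the accessory subunits lies to the right of 0 except at its lower end, and the median of all genes lies at 0.

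Among single complex I genes, NDUFA13, an accessory subunit also known as a cell death regulator, lay furthest above the control of those detected on all arrays. Its level was 9.14 in control cells. With siRNAs 1, 2 and 3 it was 9.69, 9.46 and 9.47, so that all siEPEL arrays were above the control, by 25.1% to 46.5%. The log2 fold change was 0.40 ± 0.21 (SE), and its adjusted p with limma was 1.00. NDUFAB1, the mitochondrial acyl carrier protein, had a level of 11.80 in control cells and of 12.03, 12.22 and 11.92 with siRNAs 1, 2 and 3. Its siRNA 2 level was the highest, and the log2 fold change was 0.26 ± 0.21. NDUFV1, the core subunit that binds NADH and flavin, lay above the control on all siEPEL arrays, between 1.08-fold and 1.21-fold, and its log2 fold change was 0.20 ± 0.20.

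NDUFC2, an accessory subunit, had a dim probe, above background on 2 of the 3 siEPEL arrays and below it in control cells. Its levels were 5.00 in control cells and 5.62, 5.93 and 5.48 with siRNAs 1, 2 and 3, close to the dimmest detected signal of the control array (5.62). Against that signal the siRNA 1 level was equal, the siRNA 2 level higher and the siRNA 3 level lower, so no fold is given. Its place among the members rests on siEPEL arrays alone, which tilts it towards a higher siEPEL side. The same holds for NDUFB4, whose tested probe was detected on 1 siEPEL array, and no fold is read from it.

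On the low side of complex I the differences were small. NDUFB2, an accessory subunit of the membrane arm, had a level of 12.19 in control cells and of 11.97, 11.93 and 12.07 with siRNAs 1, 2 and 3, which gives a log2 fold change of -0.20 ± 0.20 (SE). NDUFB7 was at -0.17 ± 0.21 and NDUFA1 at -0.11 ± 0.20, each with all siEPEL arrays below the control. NDUFS1, the core subunit with the most iron-sulfur centres, was low on 1 array alone: its level was 6.89 in control cells, 6.82 with siRNA 1, 6.20 with siRNA 2 and 6.87 with siRNA 3. Its siRNA 2 array stood apart from the other arrays, at 0.619-fold the control, and the log2 fold change of -0.26 ± 0.29 rests on it.

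**Figure D3:**
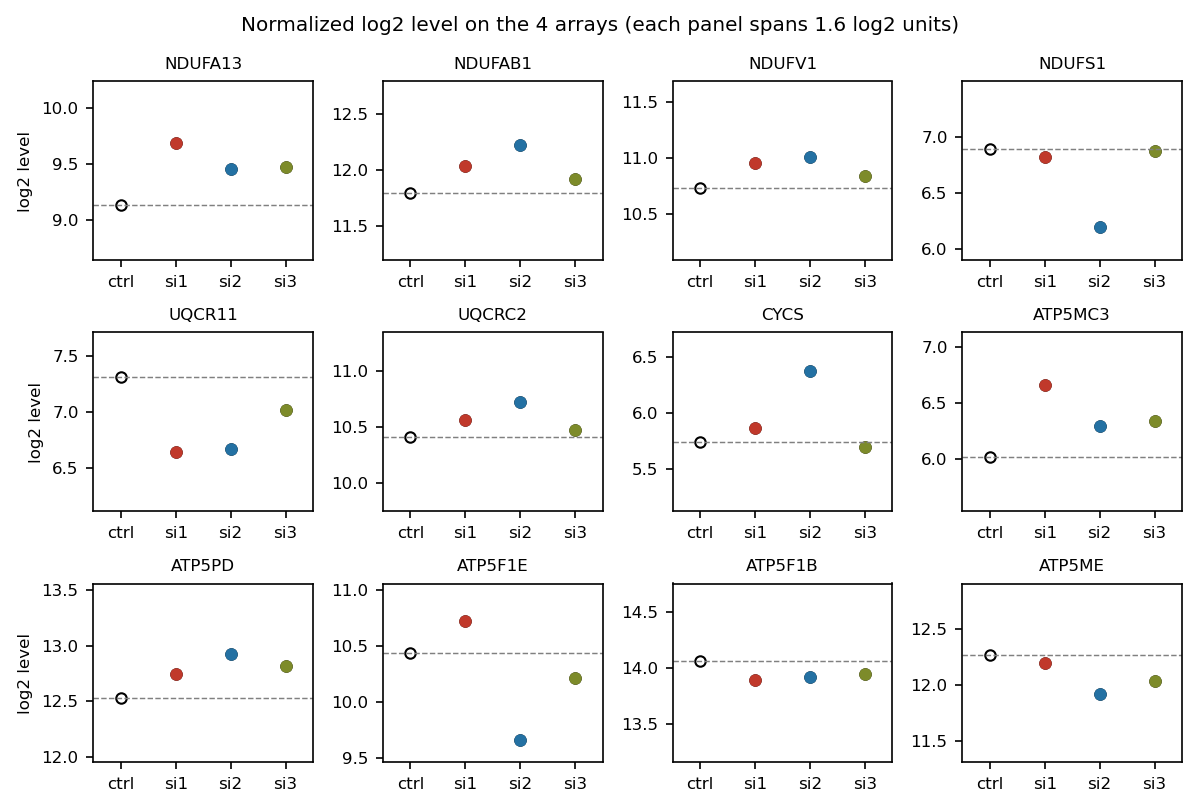
Normalized log2 level (y axis) on the control array (open circle and dashed line) and on the arrays of siRNAs 1, 2 and 3 (x axis) for 12 member genes, each panel spanning 1.6 log2 units. NDUFA13 and ATP5PD lie above the control on all siEPEL arrays and UQCR11 below it, while NDUFS1, CYCS and ATP5F1E depart mainly on the siRNA 2 array.

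Complex II, the succinate dehydrogenase that also serves the TCA cycle, was measured through 3 genes, and 0 of them lay on 1 side of the control with all siRNAs. SDHA, the flavoprotein that oxidizes succinate, had a level of 10.62 in control cells and of 10.46, 10.43 and 10.65 with siRNAs 1, 2 and 3, which gives a log2 fold change of -0.10 ± 0.21 (SE), and its other probe gave 0.08. SDHC and SDHD, the membrane anchors, were at -0.05 ± 0.20 and -0.03 ± 0.21. The control level lay within the range of the siEPEL levels for each of the 3 genes.

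Complex III, which passes electrons from ubiquinol to cytochrome c, held the lowest gene of all members, UQCR11, a small subunit, beside several genes above the control. UQCR11 had a level of 7.32 in control cells and of 6.65, 6.67 and 7.02 with siRNAs 1, 2 and 3, all below the control at 0.628-fold, 0.639-fold and 0.812-fold. Its log2 fold change was -0.54 ± 0.23 (SE), with an unadjusted p of 0.0430 and an adjusted p of 1.00 with limma. The large structural subunits went the other way by smaller amounts. UQCRC1 had a level of 10.48 in control cells and of 10.67, 10.77 and 10.54, and UQCRC2 one of 10.42 and of 10.57, 10.73 and 10.48. All siEPEL arrays were above the control for both, with log2 fold changes of 0.18 ± 0.21 each. UQCRHL, an intronless relative of UQCRH, was at 0.19 ± 0.20, and the signal of its probe cannot be told apart here from that of UQCRH, which was at 0.14 ± 0.21. Over the 9 genes the medians were 11.2% and 8.97% above the control with siRNAs 1 and 2 and 0.48% below it with siRNA 3. All 3 siRNAs were above the control in 4 genes (background 20.5%) and below it in 2 (20.3%).

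The cytochrome c genes gave unlike values. CYC1, which encodes the cytochrome c1 of complex III, had a level of 12.29 in control cells and of 12.22, 12.20 and 12.28 with siRNAs 1, 2 and 3, which gives a log2 fold change of -0.06 ± 0.20 (SE). CYCS, the soluble carrier that also triggers apoptosis when released, had a level of 5.74 in control cells and of 5.87, 6.38 and 5.70. The siRNA 2 array was high, at 1.55-fold the control, while the others were near it, and the log2 fold change was 0.24 ± 0.28. The CYCS probe was dim, though detected on all 4 arrays.

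Complex IV, the cytochrome c oxidase, was the most even of the larger groups. Its 10 measured genes had medians 0.79% below, 5.66% above and 5.19% below the control with siRNAs 1, 2 and 3, and their log2 fold changes ran from -0.11 to 0.08. With siRNAs 1, 2 and 3, 0, 0 and 0 of the 10 genes were at least 25% above the control (background 10.8%, 11.6% and 7.0%), and 0, 0 and 0 at least 20% below it (13.6%, 12.2% and 7.69%). The ratios of the 10 genes had an SD of 0.06, 0.10 and 0.10 with siRNAs 1, 2 and 3. It was 0.22, 0.24 and 0.17 for the 2574 other genes at least as bright as the lower quartile of the members. Those genes were dimmer, at a median control level of 10.82 against 12.70 for complex IV. The 72 cytosolic ribosomal protein genes, at a median control level of 13.41, had SDs of 0.13, 0.19 and 0.16. How far the evenness follows from signal level was not tested. COX4I1, the ubiquitous form of the regulatory subunit, had a level of 13.13 in control cells and of 13.19, 13.29 and 13.17, a log2 fold change of 0.08 ± 0.20 (SE) that turned to -0.0019 under median scaling. COX7A2 had a level of 12.78 in control cells and of 12.74, 12.75 and 12.50, lowest with siRNA 3, at -0.11 ± 0.21. COX6C was at -0.04 ± 0.20.

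The isoforms of complex IV known from other tissues were not detected. Probes of COX4I2, COX6A2, COX7A1, COX6B2, COX7B2 and COX8C, genes known from lung, muscle or testis, were detected on 0 arrays. In all, 9 genes that match the symbol rule had no detected probe, and the other 3 were the complex I genes NDUFA5, NDUFB1 and NDUFS6, whose products belong to complex I in all tissues. A low transcript and a poorly binding probe cannot be told apart here.

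ATP synthase had medians close to the control, at 4.90% above it with siRNA 1 and 1.01% and 1.20% below it with siRNAs 2 and 3 over 17 genes. Of these, 4 lay above the control with all 3 siRNAs (23.5%, background 20.5%) and 2 below (11.8%, background 20.3%). In the catalytic F1 head, ATP5F1B, the beta subunit, had a level of 14.06 in control cells and of 13.89, 13.92 and 13.94 with siRNAs 1, 2 and 3. These siEPEL values were close to one another and all below the control, at 0.891-fold, 0.905-fold and 0.921-fold, with a log2 fold change of -0.14 ± 0.20 (SE). ATP5F1A, the alpha subunit, stood at 0.07 ± 0.20, turned to -0.014 under median scaling, and its other probe gave -0.12. ATP5F1C, the gamma subunit of the central stalk, was at 0.15 ± 0.20.

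In the membrane part and stalk of ATP synthase, ATP5MC3 and ATP5PD lay highest. ATP5MC3, which encodes the proton-carrying c subunit, had a dim probe with a level of 6.02 in control cells and of 6.66, 6.30 and 6.34 with siRNAs 1, 2 and 3, 55.8%, 21.1% and 24.9% above the control. Its log2 fold change was 0.41 ± 0.23 (SE), while its paralogs ATP5MC1 and ATP5MC2, which encode the same mature protein, were at -0.02 ± 0.20 and -0.08 ± 0.22. ATP5PD, a peripheral stalk subunit, had a level of 12.53 in control cells and of 12.75, 12.92 and 12.82, all above the control, with a log2 fold change of 0.29 ± 0.20 that was 0.08 by its other probe. ATP5ME, the subunit e of the membrane part, had a level of 12.27 in control cells and of 12.20, 11.92 and 12.04, a log2 fold change of -0.22 ± 0.21 by each of its probes. With limma the adjusted p of all these genes was 1.00.

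**Figure D4:**
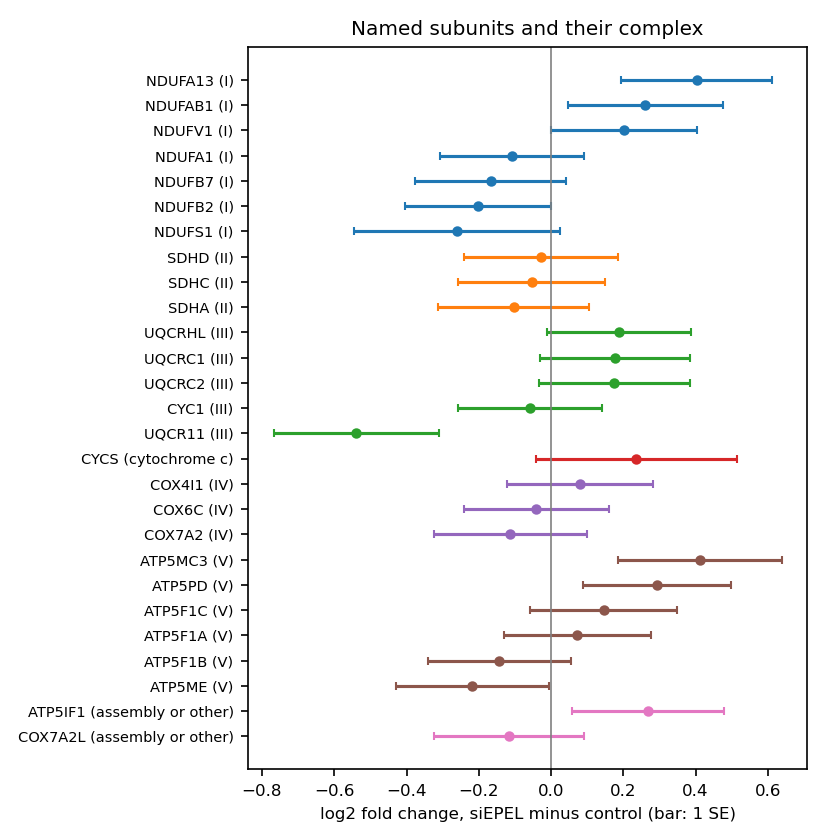
Log2 fold change of siEPEL against control (x axis, bars are 1 SE from the limma fit) for the named member genes, with the complex of each in brackets, NDUFC2 being left out because its control level was below detection. UQCR11 lies lowest at -0.54 and ATP5MC3 and NDUFA13 highest at 0.41 and 0.40, while most other bars include 0.

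Among genes that carry a subunit's symbol without being a subunit, ATP5IF1, the inhibitor that stops ATP synthase from running backwards, lay highest. Its level was 9.52 in control cells and 9.77, 9.94 and 9.67 with siRNAs 1, 2 and 3, all above the control, with a log2 fold change of 0.27 ± 0.21 (SE). A dimmer probe, detected on the control and 1 siEPEL array, gave -0.08. COX7A2L, which holds complexes III and IV together in supercomplexes, was at -0.12 ± 0.21. The 8 complex I assembly factors NDUFAF1 to NDUFAF8 lay on both sides of the control. The siRNA 2 level was above the siRNA 3 level in all 10 genes of this group of non-subunits (background 50.9%), by a median of 0.20. This direction was not particular to the group. It was seen in 9 of 10 complex IV genes, 57 of 76 mitochondrial ribosomal protein genes and 61 of all 83 members. ATP synthase, with 8 of 17, and the assembly factors outside the symbol rule, with 23 of 42, lay closer to the background.

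The wider machinery outside the symbol rule gave 0 calls by limma at an adjusted p under 0.05. Of 17 measured regulators of mitochondrial gene expression, out of 18 listed, 6 lay above the control with all siRNAs (35.3%, background 20.5%) and 3 below (17.6%, background 20.3%). The genes named from these lists are, on each side, the one whose ratios share a sign and whose ratio nearest 0 is largest, so they need not have the most extreme fold change. TFB2M, a transcription factor of the mitochondrial genome, stood at ratios of 0.36, 0.50 and 0.61, a log2 fold change of 0.49 ± 0.21 (SE) with an unadjusted p of 0.0437. GABPA, the DNA-binding subunit of GA-binding protein, was at -0.58, -0.31 and -0.15, a log2 fold change of -0.35 ± 0.23. The gene list of the TCA cycle (15 measured of 17 listed) had 5 genes above the control with all siRNAs (33.3%) and 3 below, with DLD at 0.16 ± 0.20 and MDH2 at -0.13 ± 0.20. Assembly factors (42 of 45 listed) had 9 above (21.4%) and 4 below (9.52%), with COX11, which delivers copper to complex IV, at 0.47 ± 0.23 and UQCC3 at -0.08 ± 0.20. Mitochondrial ribosomal proteins (76 measured) had 12 above (15.8%) and 17 below (22.4%), with MRPL1 at 0.42 ± 0.22 and MRPS18C at -0.29 ± 0.21.

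Several probes of the same gene give a second look at these values. Of the 83 member genes, 23 had more than 1 tested probe. The median range between the log2 fold changes of a gene's probes was 0.15, against 0.16 over all genes with several probes, and in 8 of the 23 genes the probes lay on both sides of the control. The widest range, 0.41, was that of NDUFV3, whose second probe was detected on 1 array.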

How the data were processed

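RNA from 4 samples was measured on Illumina HumanHT-12 BeadChips. The authors deposited raw intensities, the mean bead signal of each probe on a linear scale, with no background subtraction or normalization visible in the values. The submitters' processing notes name BeadStudio without a version. A column of detection p-values stands beside each array, per the file headers. A deposited table of processed intensities, linear and background-subtracted, by a method not given in the sources used here, served as an alternative. The function neqc (limma 3.58.1, R 4.3.3) applied normexp correction, quantile normalization, an offset of 16 and log2, which understates differences of dim probes. Probes with a detection p under 0.01 anywhere were then tested with lmFit and eBayes, 2-sided, with Benjamini-Hochberg adjustment over 18200 probes and a threshold of 0.05 (2 residual and 6.83 prior degrees of freedom), and the fit was tested on simulated data. The number of arrays limits the precision.

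Symbols came from the platform annotation, updated by gene identifier, which changed 0 of them. Of 131 probes with a matching symbol, 4 of pseudogenes or an antisense RNA and 17 not detected were left out. A gene is represented by its brightest tested probe. Groups came from the labels. Members and lists were chosen with earlier results of these data known. Named genes are, for complexes I, III, IV and V and the non-subunits, up to 3 on each side whose 3 ratios agree in sign, ranked by the ratio nearest 0, all of complex II, CYC1, CYCS, core subunits fixed by name, and the highest and lowest of each other list. Further genes (NDUFA2, NDUFA7, NDUFA10, NDUFB4, NDUFS7, NDUFV3, UQCRH, ATP5MC1, ATP5MC2 and ATP5F1E) were chosen after their values were seen. The search for promoter motifs was also added after the data were seen, and the NRF1 and YY1 motifs were shortened by 1 base after longer forms had been searched. The longer forms matched fewer windows, in the members and in the background, with the members again above the background. Other background corrections, scalings, offsets, filters, priors, probe summaries and left-out siRNAs were tried.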

Additional observations from a re-analysis of the deposited data

How the results depend on the processing

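The count of probes past the threshold was 0 under all alternatives run, over all probes and over the members. The number of member genes above the control with all siRNAs, 22, was 12 under median scaling and lay between 23 and 41 when 1 siRNA was left out, and the number below it, 11, lay between 13 and 27. These counts grow when fewer siRNAs must agree. With 1 siRNA left out the mean median log2 ratio lay between 0.02 and 0.09 for all members, 0.01 and 0.12 for complex I, -0.10 and -0.04 for complex II, 0.06 and 0.14 for complex III, -0.04 and 0.03 for complex IV, -0.02 and 0.03 for ATP synthase, 0.01 and 0.12 for the assembly factors and relatives, and 0.04 and 0.38 for CYCS. Complex IV and ATP synthase changed sign under some settings. The ATP synthase value of 0.01 was -0.03 under median scaling, and the complex IV value of 0.00 stayed within 0.01 of 0 under cyclic loess and without a detection filter. COX4I1 turned to -0.0019 and ATP5F1A to -0.014 under median scaling, ATP5F1A to -0.024 with the mean of its probes, and SDHD lay between -0.089 and 0.047 when 1 siRNA was left out, and the cause was not tested. The median difference between the siRNA 1 and siRNA 3 arrays over all members, 0.14, was 0.25 under median scaling, where that of all genes was 0.03. These settings were applied to that difference after seeing the data. The other 444 values of named genes and of the difference between arrays kept their direction, and 128 values of summaries moved by less than their spread, among them the sign changes of complex IV and ATP synthase given above. No paired analysis was possible because the groups share fewer than 2 replicate numbers. Dim probes (CYCS, NDUFC2, NDUFB4, ATP5MC3) limit what can be read from single arrays.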

Other observations

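ATP5F1E, the epsilon subunit of the F1 head, differed most between siEPEL arrays among the members. Its level was 10.44 in control cells and 10.73, 9.66 and 10.21 after siRNAs 1, 2 and 3. The siRNA 1 and siRNA 2 arrays therefore lay 2.09-fold apart on either side of the control, a distance reached by 0.714% of the other genes tested. ATP5F1E was picked for this distance, so the share does not measure how unusual it is. The log2 fold change of ATP5F1E, -0.24 ± 0.35 (SE) by the limma fit, had the widest error named here. The 2 bright probes annotated to ATP5F1EP2, a pseudogene copy of ATP5F1E, had the same order of arrays, with ratios of 0.18, -0.25 and -0.08 and of 0.15, -0.33 and -0.15 for siRNAs 1, 2 and 3. Whether these probes bind the ATP5F1E transcript was not tested.

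NRF1, which encodes the factor whose motif was searched, had a probe that was detected on 1 array, so no fold is given.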
